A study of Homo sapiens with 2 samples.

Results

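ATP-binding cassette (ABC) genes encode a large family of membrane pumps and a few soluble relatives. The 41 genes described here are those whose probe sets carry exactly 1 gene symbol reading ABCA to ABCG and a number, protein-coding genes only. They were covered by 92 of the 54675 probe sets on the array, out of 19775 named genes. ABCA10 and ABCC6 were not analysed here.

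An ABC transporter couples ATP binding and hydrolysis in its nucleotide-binding domains to the movement of a substrate through its membrane domains. Pumps of the ABCB, ABCC and ABCG subfamilies in the plasma membrane expel anticancer drugs or their conjugates, which is why they are known from multidrug resistance of tumours. Many ABCA genes and part of the ABCG genes export cholesterol and phospholipids, ABCD genes and part of the ABCB genes serve peroxisomes, mitochondria and lysosomes, and ABCE and ABCF proteins have no membrane domain and act on ribosomes and translation.

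The study exposed CL1-5, a highly invasive human lung adenocarcinoma line, for 24 h to 0.11 µM of analogue 3, a desmosdumotin C derivative that bears an iodine, methoxy and propyl substituents. The control culture received the solvent DMSO for the same time, and each condition was hybridised to 1 Affymetrix U133 Plus 2.0 array. The submitters give 0.11 µM as the effective dose for cytotoxicity in this line, so the comparison is of the line at a toxic dose with its solvent control. Both groups rest on a single culture of 1 cell line, and bulk RNA cannot tell fewer expressing cells from less RNA per cell.

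Values are intensities in multiples of the array median. A gene counted as measured when the brighter array reached 8 times that median (log2 3, the floor), and values under the floor were raised to it before a difference, analogue 3 minus DMSO, was taken on the log2 scale. If only the other array reached it, the fold bounds the difference from below and is written as "at least". Each gene is represented by its brightest single-gene probe set, by mean log2 value over the arrays. With 1 array a group no difference has a replicate check or a test, and the only error that can be read is that between probe sets of a gene. Over 2874 genes with several probe sets that reached the floor on each array, the SD of 1 probe set was 0.23 on the log2 scale. It was 0.25 where the dimmer probe set lay between log2 3 and 5 and 0.12 where it lay at log2 7 or above. Error from the culture, the RNA and the hybridisation is not part of it.

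The listed markers cannot identify the line itself. VIM (1868 with analogue 3 and 1883 with DMSO), KRT18 (457.9 and 460.8) and KRT8 (77.8 and 42.3) were measured, while KRT19 and KRT7 lay under the floor on both arrays. No leukocyte or fibroblast marker of the 3 listed each was measured. Of the 3 endothelial markers, PECAM1 was measured at 15.7 and 11.4, and VWF and CDH5 were at most 1.76. PECAM1 was not followed further, and its part in any ABC value was not tested.

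Of the 41 ABC genes, 15 (36.6%) were measured, against 8523 of the 19775 named genes (43.1%). None of the 15 counted as 2-fold higher or 2-fold lower with analogue 3 when values were held at the floor. For ABCA3 and ABCG1 the floored fold is only a bound from below, so they may be more than 2-fold lower. Among all measured genes 3.74% were at least 2-fold higher and 3.92% at least 2-fold lower, so at these shares a family of 15 would hold few such genes and the count of 0 says little about the family. At 1.5-fold, 1 gene (ABCB6) was higher and 3 (ABCA1, ABCA3 and ABCC10) were lower. The shares over all measured genes at that threshold were 9.60% higher and 12.9% lower. The median log2 difference of the 15 was -0.03, beside -0.05 over all measured genes, with 7 members above 0 and 8 below (ABCD4, close to 0, moves above it under each scaling alternative).

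The roles differed in where their members lay. The measured lipid exporters were all on the lower side (4 of 4) and the soluble ATPases all on the higher side (3 of 3). The exporters ABCA3 and ABCG1 were measured through the DMSO array alone, so only a lower sign was possible for them. The ATPases ABCF1 and ABCF2 differed by no more than the probe-set spread at their levels. Of the drug pumps 3 of 4 were lower, with the sign of ABCC5 not settled. Of the organelle transporters 3 of 4 were higher, or 4 of 4 where scaling turns ABCD4. Over all measured genes 55.5% lay below 0 and 44.5% above. These are counts of a few genes on 1 pair of arrays, and no test of a difference between roles was made.

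**Figure D1:**
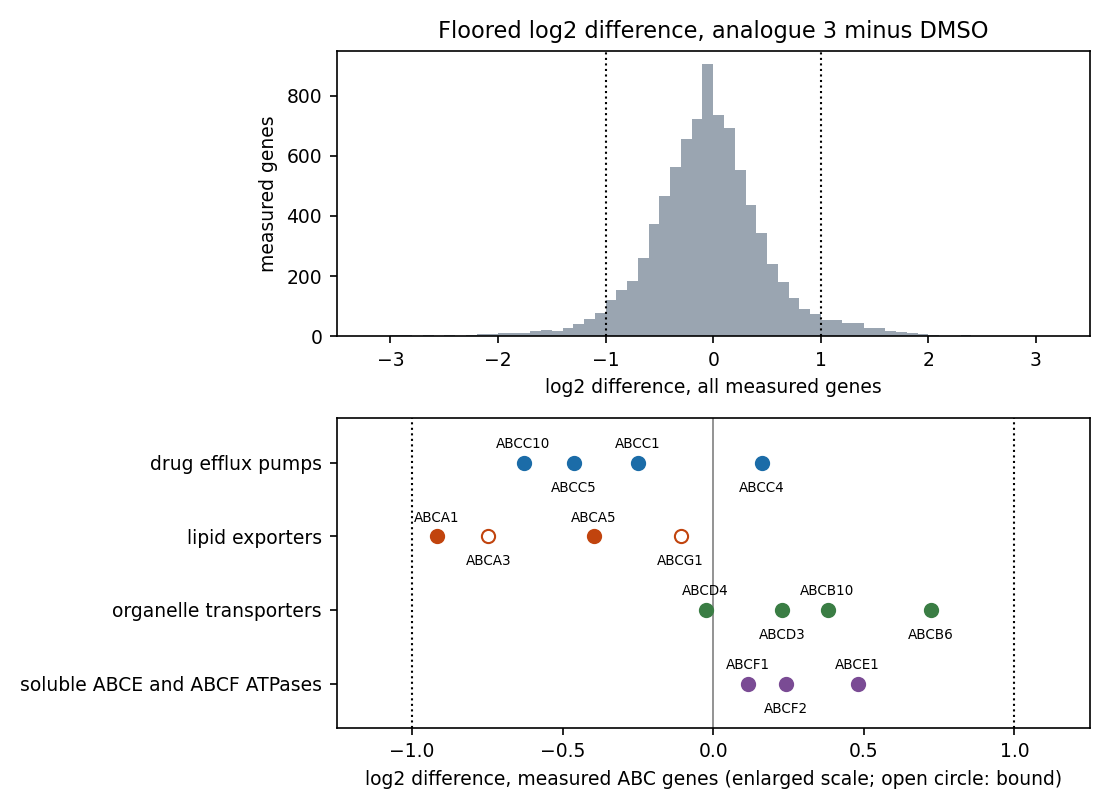
Floored log2 difference, analogue 3 minus DMSO, for all 8523 measured genes (upper panel, count of genes per 0.1) and for the 15 measured ABC genes by role (lower panel, enlarged scale; open circles are bounds). Dotted lines mark 2-fold. With values held at the floor, every ABC gene is plotted between them, from -0.92 for ABCA1 to 0.72 for ABCB6. The bounds, ABCA3 and ABCG1, may lie lower than plotted: with no floor their log2 differences were -2.08 and -3.48.

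Drug efflux pumps made up 11 of the 41 genes, and 4 were measured, with a median log2 difference of -0.36. ABCC10, a multidrug resistance-associated protein that exports taxanes, had an intensity of 26.9 with analogue 3 and 41.6 with DMSO. The treated array was thus 1.55-fold lower, and 11.2% of measured genes lay as low or lower. Its other probe set read 12.2 and 15.7, lower by a log2 difference of -0.37. ABCC1, the founding multidrug resistance-associated protein and an exporter of glutathione conjugates, read 41.4 and 49.3, a log2 difference of -0.25. That is close to the probe-set SD, and its dimmer probe set was under the floor at 5.37 and 6.03.

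ABCC5, an exporter of cyclic nucleotides and nucleotide analogues, gave no settled direction. Its brightest probe set read 9.06 with analogue 3 and 12.5 with DMSO (log2 -0.46), another read 8.56 and 7.97, and the third was under the floor at 4.52 and 2.86. The first 2 thus disagreed in sign, and the median over all 3 turned the difference to 0.10. ABCC4, which exports cyclic nucleotides, prostaglandins and thiopurine metabolites, read 40.7 and 36.4. Its log2 difference of 0.16 was under the probe-set SD.

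The other 7 drug pumps lay under the floor on both arrays in all 17 of their probe sets, between 0.197 and 3.65. ABCB1, which encodes P-glycoprotein, the classical multidrug pump, read 0.414 with analogue 3 and 0.404 with DMSO in its brighter probe set, and 0.400 and 0.365 in the other. A probe set that the annotation gives to both ABCB4 and ABCB1 read 1.11 and 1.05. ABCG2, the breast cancer resistance protein, read 3.07 with analogue 3 and 2.50 with DMSO, and ABCC2, the canalicular exporter of conjugates, 3.12 and 3.65. Neither P-glycoprotein nor ABCG2 transcripts were thus measurable on either array at this floor, which bounds them and does not show that they are absent.

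ABCC3, an exporter of bile acids and glucuronides, had 5 probe sets, all under the floor. The brightest read 1.002 with analogue 3 and 3.62 with DMSO, and the others differed by log2 values between -0.01 and 0.12. ABCB5, ABCC11 and ABCC12 read at most 0.462 in any probe set.

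**Figure D2:**
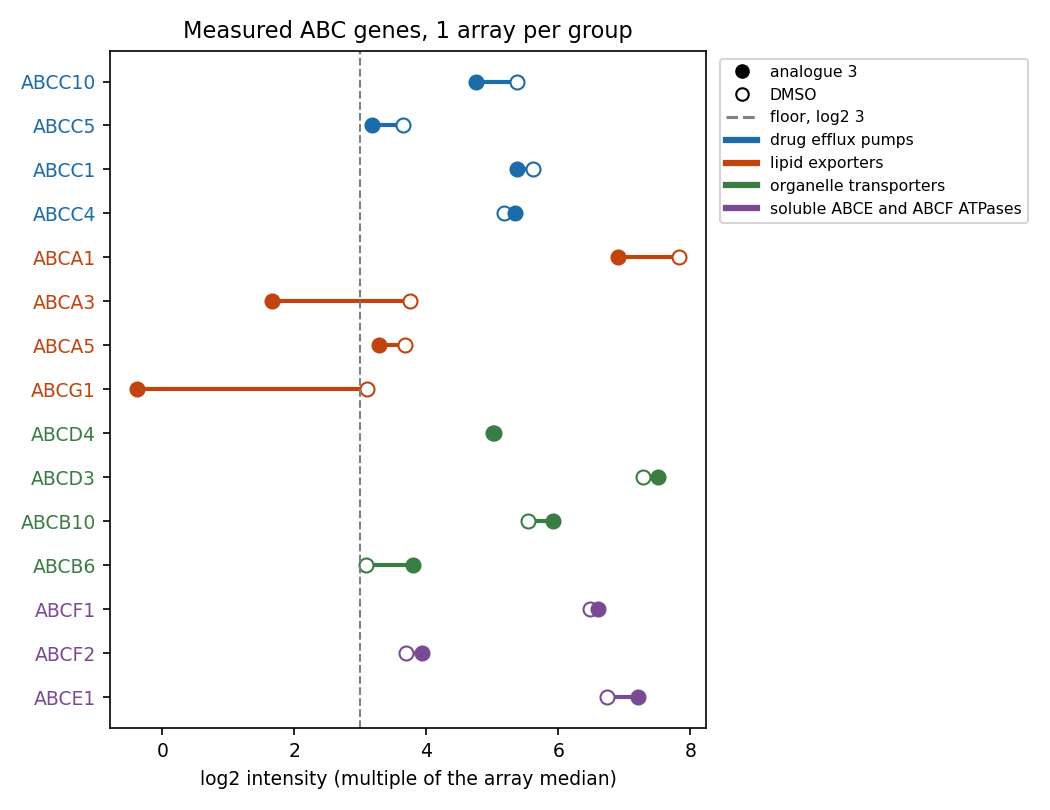
Log2 intensity of the representing probe set of each measured ABC gene on the analogue 3 array (filled) and the DMSO array (open), coloured by role, with the floor at log2 3 as a dashed line. The lines to ABCA3 and ABCG1 cross the floor on the analogue 3 side, and the other 13 genes stay at or above it on both arrays.

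Lipid exporters made up 17 of the 41 genes, and the 4 measured were lower with analogue 3, with a median log2 difference of -0.57 that includes 2 bounds. ABCA1, which hands cellular cholesterol and phospholipid to apolipoprotein A-I to form high-density lipoprotein, read 120.5 with analogue 3 and 227.6 with DMSO. The treated array was 1.89-fold lower (log2 -0.92), and 5.00% of measured genes lay as low or lower. Its next probe set read 37.3 and 81.5, which is 2.19-fold lower (log2 -1.13). The pair of probe sets differed from each other by 0.21, close to the probe-set SD, and both differences from DMSO were larger than that SD. Both probe sets read the same RNA, and the SD holds no error from the culture or the hybridisation. The last 2 ABCA1 probe sets lay far under the floor, at 0.356 to 0.687.

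ABCG1, which passes cholesterol to mature high-density lipoprotein particles and often acts beside ABCA1, read 8.62 with DMSO and 0.770 with analogue 3. Since the DMSO value lay just above the floor, the bound was only at least 1.08-fold lower. With a floor of 2 times the array median (log2 1) the bound was at least 4.31-fold. Its other 3 probe sets lay far under the floor on both arrays, at 0.320 to 1.70, and give no direction.

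ABCA3, which loads surfactant phospholipid into the lamellar bodies of alveolar type II cells, read 3.17 with analogue 3 and 13.4 with DMSO in its only probe set. The bound was at least 1.68-fold lower, and 4.23-fold lower with the floor at log2 1, where both arrays lay above it. With that lower floor 21 ABC genes were measured, and ABCA3 and ABCG1 were the 2 that were at least 2-fold lower, while 0 were higher. The shares over all genes measured with that floor were 5.25% lower and 3.76% higher. ABCA5, a lysosomal ABCA protein, read 9.70 and 12.8, a log2 difference of -0.40.

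The other 13 lipid exporters (ABCA2, ABCA4, ABCA6, ABCA7, ABCA8, ABCA9, ABCA12, ABCA13, ABCB4, ABCB11, ABCG4, ABCG5 and ABCG8) lay under the floor in all 24 of their probe sets. They ranged from 0.181 to 3.34. ABCA7, a relative of ABCA1 that handles phospholipid, was the one above 3, at 3.34 with analogue 3 and 2.95 with DMSO.

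Promoter sequences are shown for the lipid exporters ABCA1 and ABCA3 from the lower side, and for ABCB6 and ABCE1, the 2 measured genes farthest to the higher side. The lower side has no settled order, since ABCA3 and ABCG1 are bounds at log2 3 and lie below ABCA1 with a floor of log2 1. Each is the 250 bases before the start site that RefSeq gives (GRCh38.p14), 5′ to 3′ on the gene's strand. ABCA1 spans chr9:104928156-104928405 on the minus strand, ABCA3 chr16:2340729-2340978 on the minus strand, ABCB6 chr2:219218959-219219208 on the minus strand and ABCE1 chr4:145098061-145098310 on the plus strand. Capitals mark a match, on either strand, to 1 of 9 motifs. The motifs were the E-box CACGTG, the GC box GGGCGG, the CCAAT box CCAAT, the TATA box TATAAA, the C/EBP-ATF element TGATGNAA, the antioxidant response element core TGACNNNGC, the E2F element TTTCCCGC, the nuclear receptor hexamer AGGTCA and its DR4 repeat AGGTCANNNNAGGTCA with up to 2 mismatches.
ABCA1: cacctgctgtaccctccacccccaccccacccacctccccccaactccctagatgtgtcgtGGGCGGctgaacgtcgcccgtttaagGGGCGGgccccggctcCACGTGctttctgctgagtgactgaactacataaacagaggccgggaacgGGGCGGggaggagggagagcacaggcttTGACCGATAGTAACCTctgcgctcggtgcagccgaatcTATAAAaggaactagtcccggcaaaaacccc
ABCA3: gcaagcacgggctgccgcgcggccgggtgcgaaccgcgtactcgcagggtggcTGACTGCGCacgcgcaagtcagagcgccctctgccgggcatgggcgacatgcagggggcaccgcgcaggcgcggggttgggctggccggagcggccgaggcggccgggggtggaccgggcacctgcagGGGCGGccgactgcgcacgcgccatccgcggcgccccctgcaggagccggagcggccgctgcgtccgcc
ABCB6: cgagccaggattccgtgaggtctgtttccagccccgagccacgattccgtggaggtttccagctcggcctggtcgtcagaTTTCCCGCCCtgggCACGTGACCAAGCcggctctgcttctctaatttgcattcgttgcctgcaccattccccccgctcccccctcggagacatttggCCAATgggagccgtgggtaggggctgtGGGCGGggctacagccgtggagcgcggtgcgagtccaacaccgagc
ABCE1: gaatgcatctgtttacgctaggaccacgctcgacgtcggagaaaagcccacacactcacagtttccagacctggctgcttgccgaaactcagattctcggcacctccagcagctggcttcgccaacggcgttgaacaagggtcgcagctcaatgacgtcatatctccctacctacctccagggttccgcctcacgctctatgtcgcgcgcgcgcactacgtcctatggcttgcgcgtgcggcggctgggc

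DR4 repeats of this kind are the elements known for binding liver X receptors, which turn on cholesterol export genes when sterols are plentiful. The ABCA1 window held a DR4 match with 2 mismatches on the strand opposite to the gene, from position -69 to -54 counted from the start site. Such a match was present in 2.08% of the 27305 gene windows. It also held an E-box (6.49% of windows), 3 GC boxes (42.3% of windows hold at least 1) and a TATA box (11.1%). The ABCA3 window held 1 GC box and 1 antioxidant core (11.0% of windows) and none of the other motifs. Its GC content was 79.2%, against a median of 58.0% over all windows. The ABCB6 window held an E-box that overlaps an antioxidant core, an E2F element (1.42% of windows) that overlaps a GC box, a further GC box and a CCAAT box (33.0% of windows), and ABCE1 held none of the 9. The C/EBP-ATF element stood in 3.19% of windows and the hexamer AGGTCA in 12.1%, and neither was in these 4. These are matches of letters in a short window, not sites shown to be bound. Of the 15 measured genes, 13 matched the promoter table, and ABCG1 and ABCC1 did not.

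**Figure D3:**
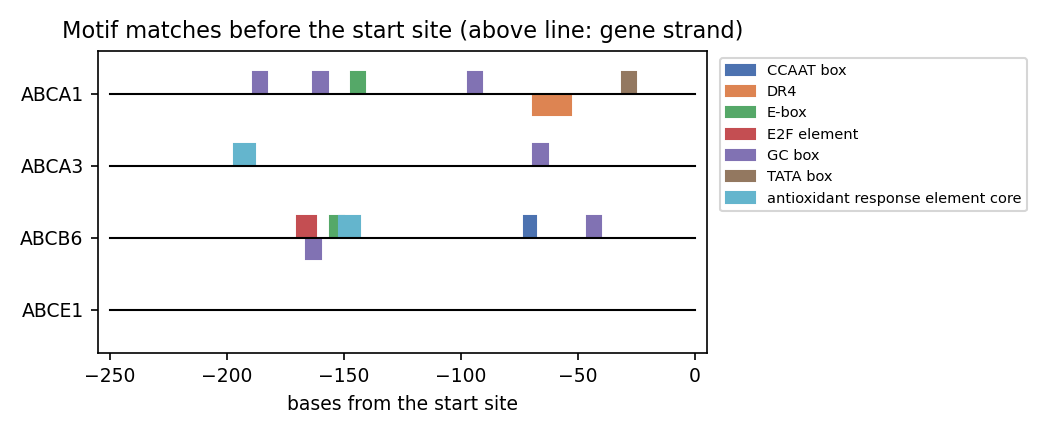
Motif matches in the 250 bases before the RefSeq start sites of ABCA1, ABCA3, ABCB6 and ABCE1, by distance from the start site in bases. Boxes above a line lie on the gene's strand and boxes below it on the other; the DR4 match stands in ABCA1 alone among the 4, and ABCE1 has no match.

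Organelle transporters made up 7 of the 41 genes, of which 4 were measured, with a median log2 difference of 0.30. ABCB6, a porphyrin transporter linked to heme synthesis, read 14.0 with analogue 3 and 8.47 with DMSO. It was 1.65-fold higher (log2 0.72), and 6.86% of measured genes lay as high or higher. Both values lie near the floor, and its other probe set was far under it at 0.650 and 0.649, so the difference rests on 1 probe set. ABCB10, a transporter of the inner mitochondrial membrane needed for heme production, read 60.5 and 46.5 in its only probe set. The treated array was higher by a log2 difference of 0.38.

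ABCD3, a peroxisomal importer of fatty acids and bile acid precursors, differed between its probe sets. The brightest read 182.2 with analogue 3 and 155.5 with DMSO (log2 0.23), and the other read 35.2 and 16.2, which is 2.17-fold higher (log2 1.12). The gap of 0.89 between them is the widest among the 5 ABC genes with several probe sets that reached the floor on each array. ABCD4, which acts in lysosomal cobalamin export, read 32.2 and 32.7, a log2 difference of -0.03 that turned to between 0.02 and 0.07 under the scaling alternatives. ABCB8, ABCB9 and ABCD2 lay under the floor in all 6 probe sets, at 0.298 to 2.45.

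Of the 4 soluble ATPases, 3 were measured, with a median log2 difference of 0.24. ABCE1, which splits ribosomes after termination so that they can start again, read 148.3 with analogue 3 and 106.4 with DMSO. It was 1.39-fold higher (log2 0.48), and its other probe set read 78.4 and 60.8 (log2 0.37). Both of its probe sets were thus higher, and 12.7% of measured genes lay as high or higher than the brightest. ABCF1, which associates with initiation factor eIF2 and ribosomes, read 97.0 and 89.5. ABCF2 read 15.2 and 12.9, and 13.1 and 11.5 in its next probe set. The log2 differences of ABCF1 and ABCF2, 0.12 and 0.24, were no larger than the probe-set spread at their levels. ABCF3 was just under the floor at 7.29 and 7.22.

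The sulfonylurea receptors ABCC8 and ABCC9, regulatory subunits of ATP-sensitive potassium channels rather than pumps, read at most 0.526 in 7 probe sets.

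Read probe set by probe set, 21 of the 92 reached the floor on at least 1 array, 11 of them with a difference above 0 and 10 below. One was at least 2-fold higher (the ABCD3 probe set above) and 1 at least 2-fold lower (the ABCA1 probe set). Over all 13496 single-gene probe sets that reached the floor, 3.53% were 2-fold higher and 3.53% 2-fold lower. In all 5 ABC genes with several probe sets that reached the floor on each array (ABCA1, ABCC10, ABCD3, ABCE1 and ABCF2), the probe sets had the same sign. ABCC5, with probe sets of opposite sign, is not among them because its second reached the floor on 1 array only. The share of genes with the same sign was not computed over the whole array.

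**Figure D4:**
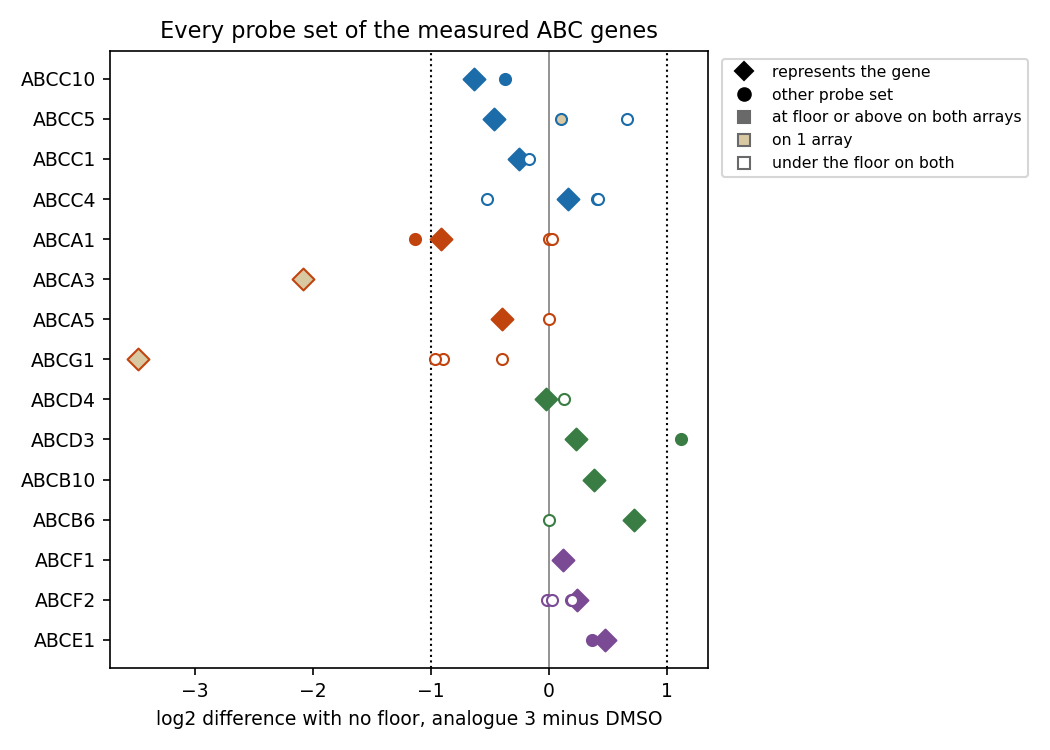
Log2 difference with no floor, analogue 3 minus DMSO, for every probe set of the 15 measured ABC genes; diamonds represent the gene, and fill shows on how many arrays the probe set reached the floor. ABCD3 and ABCC5 show the disagreement between probe sets; probe sets under the floor on both arrays give no direction.

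Some members of the superfamily carry other symbols. TAP1, which pumps peptides into the endoplasmic reticulum for MHC class I, read 77.2 with analogue 3 and 171.8 with DMSO, 2.23-fold lower (log2 -1.15). Its partner TAP2 read 29.2 and 41.8 (log2 -0.52), and 13.5 and 14.2 in its next probe set. CFTR, the chloride channel of epithelia, was at most 0.468 in 6 probe sets.

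Of 20 transcription factors known to act on ABC genes, 15 had a single-gene probe set and 13 were measured. Among the 13, 0 were at least 2-fold higher and 1 was at least 2-fold lower. The shares over all measured genes were 3.74% higher and 3.92% lower, so 1 in a list of this size says little. The median log2 difference of the 13 was -0.20, with 9 below 0 and 4 above (RXRA 0.20, YBX1 0.16, KEAP1 0.13 and HIF1A 0.09). The sign of RXRA is not settled, since its other probe set read 6.96 with analogue 3 and 8.45 with DMSO. Over all measured genes the median was -0.05, and 55.5% lay below 0. The factor that was 2-fold lower was PPARA, a fatty acid receptor that feeds into sterol export, at 5.14 with analogue 3 and 17.9 with DMSO, or at least 2.24-fold lower. Another of its probe sets read 4.32 and 16.8. Further factors, all from the lower side, are given because the genes they act on are described above, and were chosen after their values were seen. NR1H3, the liver X receptor alpha, read 5.57 and 9.10, a bound of at least 1.14-fold lower. SREBF1, the lipid synthesis factor that liver X receptors also drive, read 6.73 and 11.5 (at least 1.44-fold lower). NFE2L2, the NRF2 factor that acts on several ABCC genes, read 181.7 and 316.8, 1.74-fold lower (log2 -0.80) in its brightest probe set and -0.29 in its next. NR1H2, the other liver X receptor on the list, had no single-gene probe set. Whether any of these factors had a part in the ABC values was not tested.

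Of 34 partners and other drug transport genes, 31 had a single-gene probe set and 25 were measured, with a median log2 difference of 0.0023. Among these, 1 was at least 2-fold lower and 0 were 2-fold higher, beside 3.92% and 3.74% of all measured genes. NPC1, which releases cholesterol from lysosomes upstream of ABCA1, read 32.7 with analogue 3 and 81.9 with DMSO, 2.50-fold lower (log2 -1.32). Of the 25, 13 lay above 0 and 12 below. PEX3 and PEX19, which insert ABCD3 and other membrane proteins into peroxisomes, differed by 0.93 and 0.18 on the log2 scale in their brightest probe sets. In their next probe sets they differed by 0.35 and 0.57. Both were chosen after their values were seen, and others on the list, such as LMBRD1 (log2 -0.86), were lower. MYLIP, another liver X receptor target, was under the floor at 5.02 and 4.82 in its brightest probe set.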

How the data were processed

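Total RNA of 2 CL1-5 cultures was hybridised to 2 arrays. The submitters' processing notes name GCRMA, a sequence-based background correction with quantile normalization, without a version. The authors deposited linear intensity values whose median is 1 in each column, from which a division by the array median was inferred. Quantile normalization and the inferred division bring the arrays to a common level, so a change shared by most genes cannot be seen.

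Gene names came from the platform annotation in GEO: 41097 probe sets carried 1 symbol, 1801 several, and 11777 were not listed. By gene number 41043 matched RefSeq (GRCh38.p14). ABCC13 was left out as a pseudogene. Values were raised to a floor of log2 3 and subtracted. It was reached by 26.0% (analogue 3) and 26.8% (DMSO) of probe sets, against 13.1% and 13.4% for log2 5. Alternatives were floors of log2 5 and 1, none, centring, loess (span 0.3), quantile normalization, the median over a gene's probe sets, unique probe sets, and 1.5- and 3-fold.

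Every ABC gene with a probe set at the floor was named with its values, and the rest by role with their range. Members and lists were chosen with earlier results of these data known. The gene-level steps were tested on simulated data. Python 3.11.15, pandas 2.3.3 and statsmodels 0.14.6 were used.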

Additional observations from a re-analysis of the deposited data

Results flagged for a closer look

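The pseudogene ABCA17P, which the gene rule leaves out, reached the floor on each array. Its intensity was 24.4 on the treated array and 18.3 on the DMSO array (1.33-fold higher). Only left-out probe sets at the floor and higher on the treated array were flagged, so the direction was set by that rule and says nothing more. The other probe sets left out, ABCA11P, ABCC13, ABCC6P1 and those shared by several genes, were under the floor on both arrays.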

How the results depend on the processing

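No ABC gene counted as 2-fold higher or lower with a floor of log2 5, or after centring, loess removal or quantile normalization. None did with the median of probe sets or with unique probe sets, and none reached 3-fold. In these settings ABCA3 and ABCG1 were bounds at the floor or were not measured. At 1.5-fold, 1 was higher and 3 were lower. With a floor of log2 1, 2 were lower (ABCA3 and ABCG1), beside 5.25% of all genes measured with that floor. The same 2 were lower with no floor, a setting for which no share over all genes was computed. There both were measured through the DMSO array alone, so only a lower sign was possible. The lipid exporter median was -0.92 with a floor of log2 1 (5 genes) or log2 5 (1 gene) and -1.4997 with no floor. With log2 5 only ABCA1 is measured in that role, while with log2 1 and no floor the values of ABCA3 and ABCG1 are no longer held at log2 3. The medians of the drug pumps, organelle transporters and soluble ATPases kept their sign under every alternative run. The median of all measured ABC genes ran from -0.25 with unique probe sets to 0.12 with a floor of log2 5, so its sign is not settled. Of the 15 genes, 13 kept their sign wherever they were measured, and ABCC5 and ABCD4 did not. Among the 13, ABCA3 and ABCG1 could only be lower wherever the DMSO array alone reached the floor. A changed or removed floor also cannot turn the sign of a gene above it on both arrays, so part of this agreement was fixed in advance. No paired analysis was possible because each group holds 1 array. Precision is limited by the number of arrays.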
